A study of Homo sapiens with 2 samples.

Results

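The genes described here are those of the transforming growth factor beta (TGF-beta), bone morphogenetic protein (BMP) and activin signalling families, measured in 2 drug-resistant derivatives of the human ovarian carcinoma cell line A2780. They were chosen by name alone, as all probes other than control spots whose gene name begins with BMP, TGFB, INHB, SMAD, GDF, ACVR or LTBP. This rule found 58 genes with 99 probes among the 30238 gene names and 41000 probes of the array. A2780CBN was selected in stepwise increasing doses of carboplatin, a platinum drug that crosslinks DNA, up to 22.2 µM. A2780CBNDXL was selected with carboplatin and docetaxel, a drug that stabilizes microtubules, together, and its labels give 8.02 µM for the combination. The study's text uses 8.02 µM for carboplatin, given with 8.02 nM docetaxel. These are doses measured in a survival assay and not the final selecting doses. Each line is a drug-selected population and not a clone, and each was compared with untreated A2780 cells cultured alongside it, called A2780CC in the labels of both lines.

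For each line, RNA from 3 isolations was pooled into 1 sample and hybridized together with control RNA to 4 arrays, with the dyes exchanged between arrays on each of 2 slides. The 4 arrays therefore repeat 1 pair of RNA samples, and the SD given below is the spread between these arrays (n = 4 unless another n is given), which leaves out the spread between cultures. No test across cultures was possible. A gene was called higher or lower in a line when the log2 ratio of the resistant over the control channel averaged at least 1 in size (2-fold), had the same sign on all 4 arrays, and one of the channels cleared the scanner's background test on all 4 ("above background" below). Signals are the processed fluorescence intensities in arbitrary units, and they are compared only within a probe.

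Ligands of this superfamily are secreted dimers that bring together type I and type II receptor kinases at the cell surface, and the type I receptor then phosphorylates a receptor-regulated SMAD. TGF-beta and activin signals are carried by SMAD2 and SMAD3, and BMP signals by SMAD1, SMAD5 and SMAD9, in each case with the shared partner SMAD4, while SMAD6 and SMAD7 are inhibitory. TGF-beta itself leaves the cell in a latent complex bound to latent TGF-beta binding proteins (LTBPs), which anchor it in the extracellular matrix until it is released.

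The probes on which the main results rest are shown by their first 30 bases, since each measures only the stretch of transcript it matches. All are 60 bases long and are written 5′ to 3′ in lower case without marked bases. Coordinates are those of the whole probe in the files, on build NCBI36, and the files pair each probe with a gene but not with an exon or untranslated region.
TGFB2, chr1:216683872-216683931, plus strand: tgtattttgatgaccaattacgctgtattt
TGFB2 other probe, chr1:216681407-216681466, plus strand: caagaaaacataagagagccttggttcatc
TGFBR2, chr3:30710167-30710226, plus strand: catgctgataccatcccaatagctgttgcc
LTBP1, chr2:33477340-33477399, plus strand: catatgtaaaattcaatggaagagaggtgg
BMP5, chr6:55728360-55728419, minus strand: ccacgtaccaaagccttgttgtgctccaac
TGFBI, chr5:135427242-135427301, plus strand: agctatgagttgaaatgttctgtcaaatgt
GDF15, chr19:18360890-18360949, plus strand: tattggggtgaccttcttggggactcgggg
BMPR1B, chr4:96296744-96296803, plus strand: ctatattttgcatttacttcccagtgcttc
INHBE, chr12:56137131-56137190, plus strand: ggtctacccagaaagcatgatttcctgccc

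Between 59.8% and 67.5% of the probes of a channel passed that background test, and no spot was saturated. Replicate spike-in spots varied by 3.56% to 4.87% on 7 arrays and by 19.6% and 20.0% (green and red channel) on array 1 of A2780CBNDXL. After the exchanged dyes were turned back, log2 ratios over all probes of forward and reverse arrays correlated at 0.58 to 0.61 in A2780CBN and at 0.73 to 0.74 in A2780CBNDXL, and those of arrays with the same labelling at 0.85 to 0.90. Array 1 of A2780CBNDXL is among the arrays left out in turn below.

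Of the 58 genes, 42 were tested in A2780CBN and 9 of them were called higher and 2 lower. Over all 17951 genes tested in that line, 8.00% were called higher and 4.55% lower, 12.6% in all, beside 26.2% of the tested family members. In A2780CBNDXL, 40 were tested, of which 7 were called higher and 5 lower. Over all 17116 genes tested in that line, 7.70% were called higher and 9.20% lower, 16.9% in all. A member that passed the background filter through its bright channel only had to differ between channels. Where both channels had to be above background, 8 of 37 members were called in A2780CBN beside 9.07% of all genes, and 8 of 33 in A2780CBNDXL beside 12.6%. The median log2 ratio of the tested members was 0.07 in A2780CBN, where it was -0.06 over all genes, and 0.40 in A2780CBNDXL, where it was 0.04 over all genes. In all, 18 members were called in at least 1 line. BMP5 and TGFBI were higher in both lines, TGFB2, TGFBR2 and LTBP1 had opposite calls, higher in A2780CBN but lower in A2780CBNDXL, 6 genes were called in A2780CBN alone and 7 in A2780CBNDXL alone. The probes of 11 members, among them INHBA, INHBB and BMP2, stayed at background in every channel of every array.

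**Figure D1:**
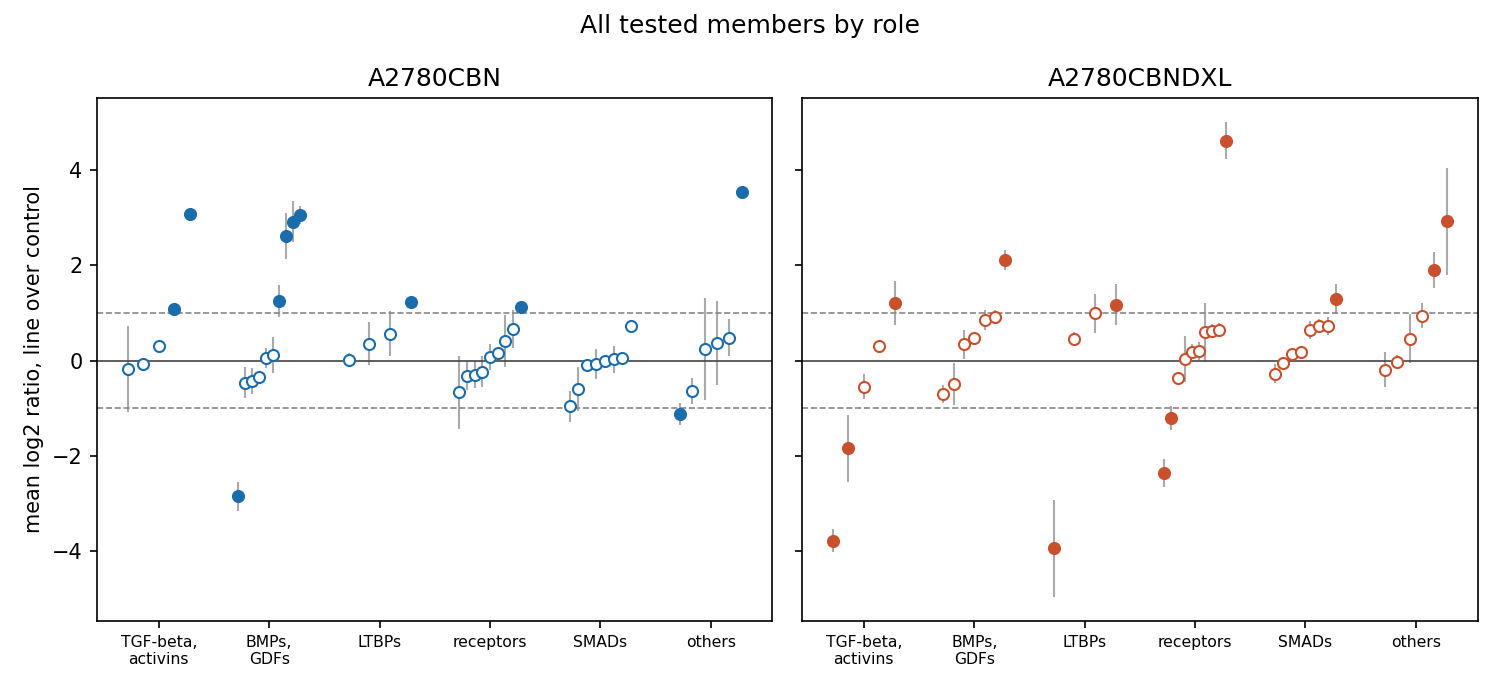
Mean log2 ratio of resistant line over control (vertical axis) of every tested member in A2780CBN (left, 42 genes) and A2780CBNDXL (right, 40 genes), grouped by role on the horizontal axis. Filled points were called, open points were not, bars are the SD over 4 arrays, and dashed lines mark a log2 ratio of 1 in either direction. No SMAD is called in A2780CBN, while single ligands, receptors and binding proteins reach from -3.94 to 4.62 in A2780CBNDXL.

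Among the 3 TGF-beta ligands, TGFB2 differed most from control. In A2780CBN its log2 ratios on the 4 arrays were 3.00, 3.16, 2.98 and 3.22, a mean of 3.09 ± 0.12 or 8.51-fold, with mean signals of 1236 in the resistant line and 146 in control. In A2780CBNDXL they were -1.19, -2.44, -1.26 and -2.45, a mean of -1.84 ± 0.71, with 191 in the resistant line and 764 in control. All 4 arrays of A2780CBN thus lay above 0 and all 4 of A2780CBNDXL below it. The other TGFB2 probe gave the same picture, with 3.09 ± 0.50 in A2780CBN and -1.66 ± 0.27 in A2780CBNDXL. TGFB3 was 0.98, 1.09, 1.02 and 1.24 in A2780CBN (1.08 ± 0.11, called higher) and -0.71, -0.26, -0.81 and -0.39 in A2780CBNDXL (-0.54 ± 0.26, not called). The other TGFB3 probe gave 0.91 ± 0.33 in A2780CBN, just under the limit.

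TGFB1, the most widely expressed TGF-beta ligand, was called in A2780CBNDXL only, where the arrays gave 0.79, 1.63, 0.85 and 1.61 (1.22 ± 0.46, or 2.33-fold). In A2780CBN the values followed the labelling, at 0.58 and 0.63 on the forward arrays and -0.94 and -0.95 on the reverse arrays, so the mean of -0.17 ± 0.90 is the average of opposite signs. Of the inhibin and activin beta subunits, which pair to form activins, INHBE had log2 ratios of -3.47, -3.96, -3.69 and -3.98 in A2780CBNDXL. Its mean there was -3.78 ± 0.24, with a signal of 34.6 against 456 in control, and the resistant channel was above background on 2 of 4 arrays. In A2780CBN the INHBE ratios were all slightly above 0, at 0.30 ± 0.09. INHBC, whose probe lies 6.48 kb from that of INHBE on chromosome 12, gave -0.07 ± 0.10 in A2780CBN and 0.31 ± 0.11 in A2780CBNDXL.

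Among the BMP and growth differentiation factor (GDF) ligands, 5 of 10 tested genes were called in A2780CBN and 1 of 7 in A2780CBNDXL, beside 12.6% and 16.9% of all genes. BMP5, a ligand of the subgroup that also holds BMP6 and BMP7, was called in both. Its ratios were 3.10, 3.20, 2.77 and 3.13 in A2780CBN (3.05 ± 0.19, or 8.28-fold) and 2.19, 1.90, 2.38 and 1.99 in A2780CBNDXL (2.12 ± 0.21, or 4.33-fold). No array of either line fell below 1.90, and the control signals were 80.5 and 141.
BMP7 was higher with all 3 of its tested probes in A2780CBN, at 1.25 ± 0.33, 1.26 ± 0.05 and 1.30 ± 0.27. In A2780CBNDXL the brightest probe gave 0.85 ± 0.21 and was not called, while the others gave 1.64 ± 0.25 and 1.24 ± 0.44 and passed the limit. All 12 ratios of each line were above 0, so the probes differ in size and not in direction.

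GDF15, a stress-induced ligand that signals through a receptor of its own in the brainstem rather than through the type I and type II kinases, had ratios of 2.21, 3.04, 2.19 and 3.04 in A2780CBN (2.62 ± 0.48, or 6.14-fold), with mean signals of 31788 against 5161. In A2780CBNDXL its spots on 1 array were marked as outliers, so that it was not tested. The other 3 arrays gave -1.48, -1.15 and -1.13, with mean signals of 5249 in the resistant line and 12334 in control. The ratios of the lines therefore lay on opposite sides of 0 on every array measured.

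BMP4 and GDF10 were called in A2780CBN with weak signals, and in each case 1 channel stayed at background on all 4 arrays. BMP4, a ligand used in mesoderm formation, gave -2.63, -2.93, -2.60 and -3.24 in A2780CBN with signals of 4.71 in the resistant line and 34.3 in control, so that the gene was at least 1.57-fold lower. In A2780CBNDXL 3 arrays were measured, at -2.27, -1.94 and -1.38, and control was above background on 2 of them. GDF10 gave 3.15, 2.75, 2.40 and 3.36 in A2780CBN, with signals of 41.5 and 5.48, or at least 1.91-fold higher, and was not above background in A2780CBNDXL. GDF2, whose probe lies 12.8 kb away on chromosome 10, was not tested in either line. GDF11, a ligand close to myostatin, was not called but was tight, at -0.35 ± 0.04 in A2780CBN and 0.92 ± 0.14 in A2780CBNDXL. The other tested members of this group had log2 ratios between -0.70 and 0.47.

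LTBP1, a binding protein that holds latent TGF-beta in the matrix, was higher in A2780CBN at 1.17, 1.25, 1.27 and 1.24 (1.23 ± 0.05). In A2780CBNDXL it was lower at -2.48, -4.81, -4.39 and -4.08 (-3.94 ± 1.01), and the resistant signal of 13.1 against 188 in control was not above background on any array, so the gene was at least 7.93-fold lower. The highest of these 4 ratios belongs to array 1, the array with the variable spike-in spots. LTBP3 was called higher in A2780CBNDXL (0.82, 1.5, 0.78 and 1.60, mean 1.18 ± 0.43) and gave 0.36 ± 0.45 in A2780CBN, where the reverse arrays gave -0.05 and -0.01. Its other probe gave 0.55 ± 0.17 in A2780CBNDXL and was not called. LTBP4 lay just below the limit in A2780CBNDXL, with a mean of 1.00 ± 0.40 that is 1.99-fold, and its other probe gave 1.44 ± 0.50. LTBP2 gave 0.02 ± 0.14 in A2780CBN and 0.45 ± 0.15 in A2780CBNDXL, where a dimmer probe reached 1.27 ± 0.31. LTBP1 was thus the only 1 of the 4 binding proteins to be lower in A2780CBNDXL.

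Of the 12 receptor genes, 9 were tested in A2780CBN and 1 was called, and 10 were tested in A2780CBNDXL and 3 were called, beside 12.6% and 16.9% of all genes. TGFBR2, the type II receptor that binds TGF-beta, was higher in A2780CBN (0.98, 1.05, 1.22 and 1.22, mean 1.12 ± 0.12) and lower in A2780CBNDXL (-2.25, -2.52, -1.98 and -2.67, mean -2.36 ± 0.30). Mean signals were 570.1 against 264 in A2780CBN and 69.5 against 354 in A2780CBNDXL. A further TGFBR2 probe stayed at background in all channels. TGFBR3, or betaglycan, a coreceptor that presents TGFB2 to the type II receptor, gave 0.13, 0.03, 0.24 and 0.23 in A2780CBN (0.16 ± 0.10) and -1.54, -1.19, -1.13 and -0.95 in A2780CBNDXL (-1.20 ± 0.25, called lower). TGFBR1, the matching type I receptor, was close to background and gave 0.42 ± 0.55 and 0.59 ± 0.63. In A2780CBNDXL the type II receptor and the coreceptor were therefore lower on every array, while the type I receptor was not.

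BMPR1B, a type I receptor for BMPs, was called in A2780CBNDXL only. In A2780CBNDXL the arrays gave 5.16, 4.31, 4.67 and 4.35 (4.62 ± 0.39), with a signal of 452 against 18.8 in control. The control was above background on 1 array, so this ratio rests on a control near background. A further BMPR1B probe gave 4.00 ± 0.93 with control not above background on any array, or at least 7.84-fold higher. In A2780CBN neither channel was above background. BMPR1A, a further type I receptor for BMPs, was 0.67 ± 0.39 in A2780CBN and 0.65 ± 0.13 in A2780CBNDXL, positive on all 4 arrays of each line and on those of 2 further probes. The type II receptor BMPR2 gave -0.31 ± 0.30 and 0.19 ± 0.16 with its brighter probe and -0.48 ± 0.09 and 0.74 ± 0.06 with the other. Of the genes named as activin receptors, ACVR1 (-0.30 ± 0.28 and 0.63 ± 0.14), ACVR1B (-0.23 ± 0.32 and 0.04 ± 0.48), ACVR2A (0.08 ± 0.27 and 0.21 ± 0.18) and ACVR2B (-0.66 ± 0.76 and -0.37 ± 0.10) were not called in A2780CBN or A2780CBNDXL. For ACVR2B in A2780CBN the forward arrays gave -1.33 and -1.31 and the reverse arrays -0.02 and 0.00, and its other probes gave -0.80 ± 0.27 and -0.68 ± 0.11.

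**Figure D2:**
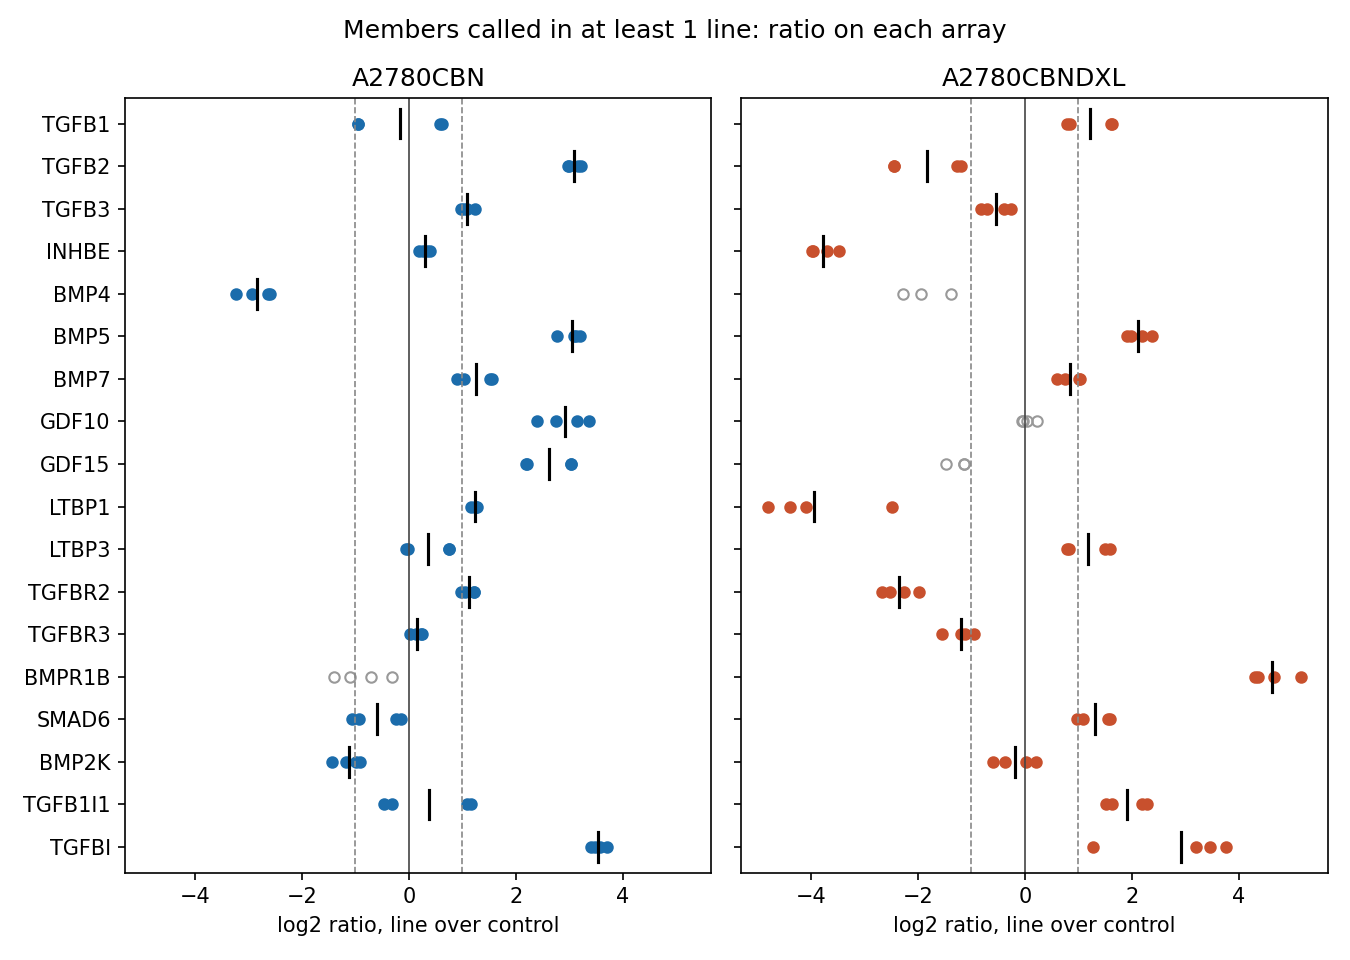
Log2 ratio of resistant line over control (horizontal axis) on each of 4 arrays for the 18 members called in at least 1 line, in A2780CBN (left) and A2780CBNDXL (right). Filled points are tested genes with a bar at the mean, open grey points are genes not tested in that line, and dashed lines mark a log2 ratio of 1 in either direction. TGFB2, TGFBR2 and LTBP1 lie right of 0 in A2780CBN and left of it in A2780CBNDXL, and BMP5 and TGFBI lie right of 0 in both.

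Several calls depended on how the signals were processed and tested. With normexp at an offset of 50 and loess, changed together, TGFB2 kept its calls at 1.78 in A2780CBN and -1.06 in A2780CBNDXL. TGFBR2 gave 0.61 and -0.85, LTBP1 gave 0.48 and -0.60, and TGFBI gave 0.86 and 0.91, all with the same sign as before and none past the 2-fold limit. The calls of TGFB3 (0.75), BMP2K (-0.26), BMP4 (-0.17) and GDF10 (0.23) in A2780CBN and of LTBP3 (0.92), SMAD6 (0.86) and TGFBR3 (-0.49) in A2780CBNDXL were also lost. With plain subtraction and centring, A2780CBNDXL kept all 12 calls and A2780CBN 9 of 11. An analysis of variance was fitted gene by gene to the channels, with p adjusted over all tested genes. It held terms for line, dye and slide but none for array, so the paired channels of an array were treated as independent. There TGFB2 in A2780CBNDXL did not pass an adjusted p of 0.05, and TGFB1I1, TGFBI and TGFBR3 in that line did not pass 0.01. Fits by limma to the within-array ratios kept all 12 calls of that line.

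The controls of the lines were not alike for every member, although the labels give both the same name. With channels scaled between arrays and arrays matched by slide and dye, the control means differed by 2-fold or more, with the same sign on all 4 matched pairs, for 3 of the 39 members tested in both lines (7.69%), beside 3.94% of the 16131 genes tested in both. These were TGFB2, SMAD6 and TGFBI. The smallest pair differed by 0.93 log2 units for TGFB2, 0.58 for SMAD6 and 0.056 for TGFBI, whose controls differed by 1.42-fold without the fourth pair. The TGFB2 signal was 4.32-fold higher in the control of A2780CBNDXL than in that of A2780CBN (log2 difference 2.11 ± 0.92), and its other probe gave 4.56-fold. Against the other line's control, A2780CBNDXL had a TGFB2 log2 ratio of 0.28 ± 0.36 in place of -1.84, and A2780CBN one of 0.98 ± 0.82 in place of 3.09. The lower TGFB2 call in A2780CBNDXL and the higher one in A2780CBN were both lost there, so each depends on which control is used. GDF15 behaved similarly on the 3 arrays measured, with a control 2.16-fold higher for A2780CBNDXL and a ratio of -0.14 ± 0.25 of that line over the other control. For TGFBR2 and LTBP1 the controls differed by 1.28-fold and 1.37-fold. Against the other control A2780CBNDXL still gave -2.0 ± 0.38 and -3.49 ± 0.76, while A2780CBN gave 0.76 ± 0.30 and 0.78 ± 0.22, above 0 but under the 2-fold limit. A2780CBN also lost the calls of BMP7 (0.42 ± 0.20, with 0.67 and 0.94 for its further probes) and BMP2K (-0.70 ± 0.33). BMP4 and GDF15 in that line had 3 arrays there and were not tested, so their calls were lost too. A2780CBNDXL also lost those of LTBP3 (0.56 ± 0.07), TGFBR3 (-0.76 ± 0.32) and SMAD6. Calls gained were those of ACVR2B and SMAD9 in A2780CBN and of BMP7, GDF11, LTBP4 and TGFBR1 in A2780CBNDXL.

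A comparison of the resistant channels with each other does not take either control as its reference, although the scaling between arrays used both channels. The log2 difference of A2780CBNDXL minus A2780CBN was -2.81 ± 0.34 for TGFB2, -3.12 ± 0.44 for TGFBR2 and -4.72 ± 0.80 for LTBP1. It was -3.99 ± 0.68 for INHBE, -1.78 ± 0.25 for TGFB3 and -2.90 ± 0.23 for GDF15 (3 arrays). BMPR1B and TGFB1 were brighter in A2780CBNDXL, by 6.38 ± 0.14 and 1.47 ± 0.30. BMP5 differed by -0.20 ± 0.22 and TGFBI by 0.47 ± 0.35, so the genes that were higher in both lines reached similar signals in both. Values for LTBP1 in A2780CBNDXL and BMPR1B in A2780CBN rest on a channel that stayed at background.

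**Figure D3:**
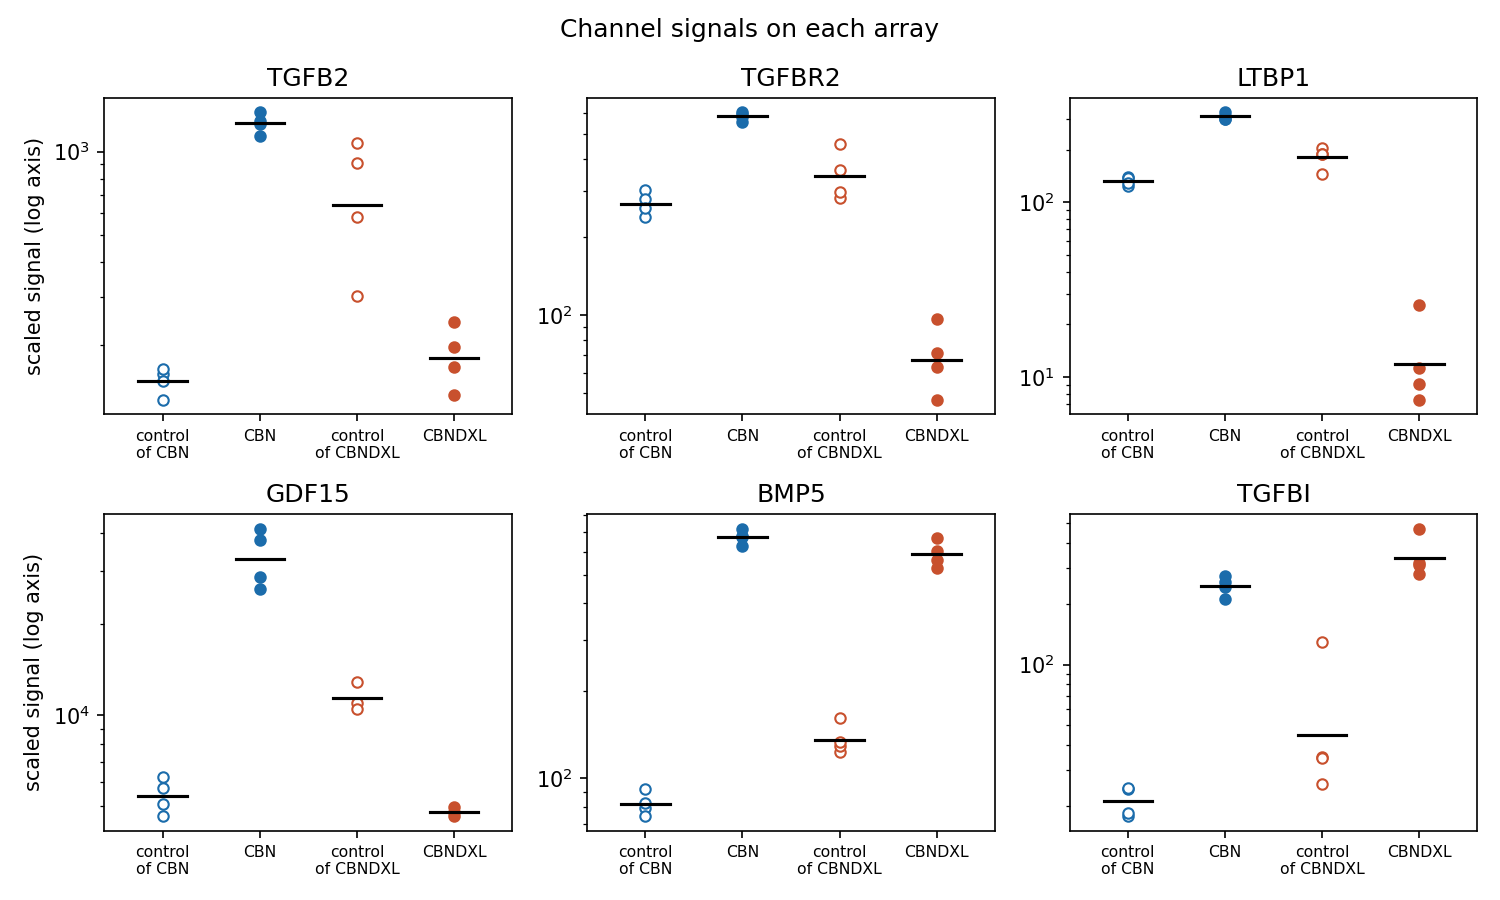
Signals of the resistant line (filled) and control (open) on each array, scaled between arrays, for 6 members on logarithmic vertical axes, with bars at the geometric mean. The control of A2780CBNDXL lies above that of A2780CBN for TGFB2 (643.8 against 149) and GDF15 (11382 against 5378), while those of TGFBR2 and LTBP1 differ less.

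**Figure D4:**
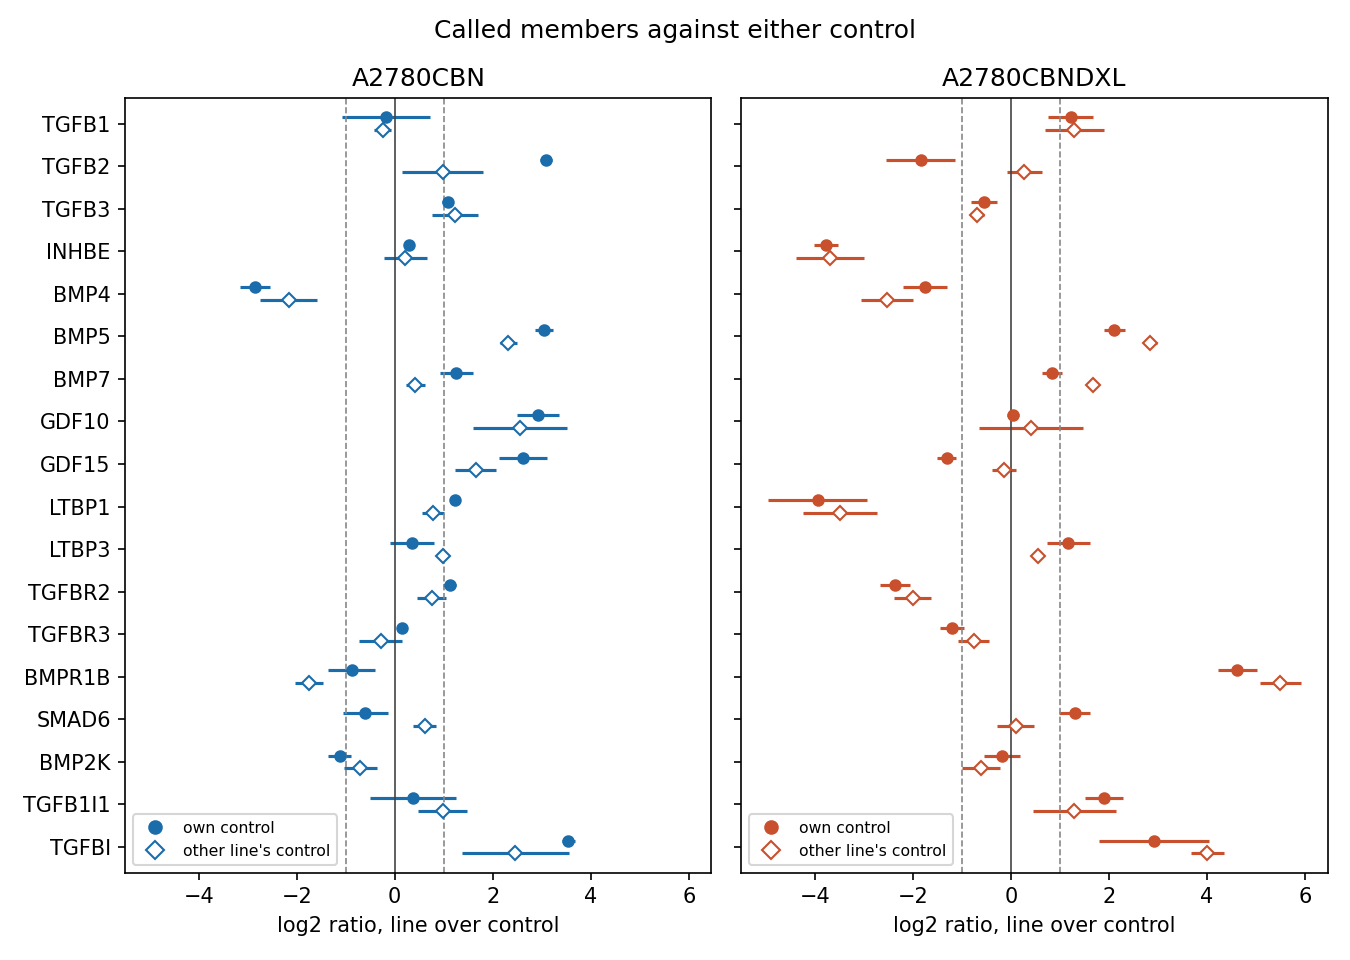
Mean log2 ratio of each line over its own control (circles) and over the other line's control on the same slide and in the same dye (diamonds) for the 18 called members, with bars for the SD over arrays and dashed lines at a log2 ratio of 1 in either direction. In A2780CBNDXL the TGFB2 value moves from -1.84 to 0.28, while TGFBR2, LTBP1, INHBE, BMP5, BMPR1B and TGFBI stay on the same side beyond the dashed lines.

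The promoters of the genes with opposite calls, and of the pair that was higher in both lines, are shown so that their short sequence elements can be set side by side. RefSeq promoter sequences of assembly GRCh38.p14 were matched by symbol for 49 of the 58 members and 15 of the 18 called members. INHBE, BMP7 and BMP2K are the called members without a match. The 250 bases before the start of transcription were searched on both strands for the SMAD element CAGACA and the GC box, spelled GGGCGG. The cyclic AMP response element TGACGTCA was searched in the same way. The AP-1 site was searched as TGANTCA and the E-box as CACGTG. The CCAAT box was searched on both strands too, and the TATA box, TATAAA, on the strand of the gene alone. Capitals mark every match, neighbouring or overlapping matches run together, and where a gene has several starts the most upstream is shown.
TGFB2 promoter, chr1:218345086-218345335, plus strand: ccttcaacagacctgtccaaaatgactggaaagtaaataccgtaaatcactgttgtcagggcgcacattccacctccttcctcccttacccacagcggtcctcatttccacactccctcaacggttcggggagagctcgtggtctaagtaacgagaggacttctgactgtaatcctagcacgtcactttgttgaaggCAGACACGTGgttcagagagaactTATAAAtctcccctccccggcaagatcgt
TGFBR2 promoter, chr3:30606106-30606355, plus strand: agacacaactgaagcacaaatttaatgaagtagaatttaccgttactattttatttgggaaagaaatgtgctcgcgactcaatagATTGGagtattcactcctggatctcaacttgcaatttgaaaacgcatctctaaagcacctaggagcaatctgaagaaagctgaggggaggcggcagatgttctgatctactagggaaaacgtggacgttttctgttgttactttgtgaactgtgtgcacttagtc
LTBP1 promoter, chr2:32946703-32946952, plus strand: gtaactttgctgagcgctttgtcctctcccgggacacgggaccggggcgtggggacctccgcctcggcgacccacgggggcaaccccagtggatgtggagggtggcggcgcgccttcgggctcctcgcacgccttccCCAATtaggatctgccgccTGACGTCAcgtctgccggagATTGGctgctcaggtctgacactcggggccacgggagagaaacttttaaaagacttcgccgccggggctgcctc
BMP5 promoter, chr6:55875591-55875840, minus strand: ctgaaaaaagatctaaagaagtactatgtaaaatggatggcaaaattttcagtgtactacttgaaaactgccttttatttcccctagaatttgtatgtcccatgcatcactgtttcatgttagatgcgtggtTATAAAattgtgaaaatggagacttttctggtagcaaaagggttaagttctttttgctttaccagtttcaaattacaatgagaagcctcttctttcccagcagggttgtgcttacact
TGFBI promoter, chr5:136028738-136028987, plus strand: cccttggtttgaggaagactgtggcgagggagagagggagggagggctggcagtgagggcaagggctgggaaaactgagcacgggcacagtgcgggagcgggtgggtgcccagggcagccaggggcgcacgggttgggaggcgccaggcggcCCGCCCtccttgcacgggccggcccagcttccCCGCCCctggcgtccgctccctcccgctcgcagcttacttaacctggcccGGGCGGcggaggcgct

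The TGFB2 window holds a SMAD element that overlaps an E-box between 53 and 44 bases before the start, and a TATA box 29 bases before it. TGFBR2 holds a CCAAT box in the window shown, and the window of its second start holds 2 GC boxes and a CCAAT box. LTBP1 holds a cyclic AMP response element 94 bases before its first start between a pair of CCAAT boxes, and a SMAD element before each of its other 2 starts. BMP5 has only a TATA box, 118 bases before the start, and TGFBI has 3 GC boxes and none of the other elements. No searched element was therefore present in all 3 windows of TGFB2, TGFBR2 and LTBP1. Of the 35116 promoters in the table, 13.6% hold the SMAD element, 42.6% the GC box, 1.65% the cyclic AMP response element, 6.57% the AP-1 site, 6.34% the E-box, 32.0% the CCAAT box and 6.80% the TATA box. Among the 26 promoters of the called members, 5 hold the SMAD element, 15 the GC box, 1 the cyclic AMP response element, 0 the AP-1 site, 3 the E-box, 7 the CCAAT box and 4 the TATA box. A match is a description of letters and says nothing of binding.

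The SMADs, which carry the signal to the nucleus, were all above background, and 1 of 8 was called in A2780CBNDXL and 0 of 8 in A2780CBN, where 16.9% and 12.6% of all genes were called. In A2780CBN their log2 ratios lay between -0.96 and 0.73. The receptor-regulated SMAD1 (0.05 ± 0.03 and 0.19 ± 0.05 in A2780CBN and A2780CBNDXL), SMAD2 (0.03 ± 0.29 and -0.06 ± 0.09) and SMAD5 (0.00 ± 0.09 and -0.27 ± 0.20) and the shared SMAD4 (-0.07 ± 0.31 and 0.13 ± 0.05) differed little from control. SMAD9 was 0.73 ± 0.04 and 0.64 ± 0.18, above 0 on all 8 arrays with 2 probes. SMAD3 was -0.08 ± 0.06 in A2780CBN and 0.73 ± 0.18 in A2780CBNDXL, and its other probe gave -0.08 ± 0.15 and 0.63 ± 0.25. The inhibitory SMADs, both of which are induced by the pathway they restrain, had ratios below 0 on all 4 arrays of A2780CBN and above 0 on all 4 of A2780CBNDXL. SMAD6 gave -0.24, -0.93, -0.15 and -1.06 in A2780CBN (-0.60 ± 0.47) and 1.09, 1.60, 0.98 and 1.55 in A2780CBNDXL (1.31 ± 0.31, called higher). SMAD7 gave -0.72, -1.32, -0.67 and -1.13 in A2780CBN (-0.96 ± 0.32) and 0.53, 0.85, 0.70 and 0.82 in A2780CBNDXL (0.73 ± 0.14), and was called in neither. Against the other line's control SMAD6 gave 0.61 ± 0.24 in A2780CBN and 0.10 ± 0.38 in A2780CBNDXL, with neither past the limit. SMAD7 gave -0.41 ± 0.53 and 0.17 ± 0.63 there, with arrays on both sides of 0 in each line.

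TGFBI, an extracellular matrix protein named for its induction by TGF-beta, was higher in both lines. The arrays gave 3.40, 3.48, 3.58 and 3.71 in A2780CBN (3.54 ± 0.13, or 11.7-fold) and 3.76, 3.46, 3.20 and 1.27 in A2780CBNDXL (2.92 ± 1.13, or 7.59-fold). The control channel was above background on 1 of 4 arrays in A2780CBN and on 3 of 4 in A2780CBNDXL. The low ratio of the fourth A2780CBNDXL array came with a scaled control signal of 129 beside 25.6 to 34.8 on the other 3. Its chromosomal neighbours SMAD5OS and SMAD5, with probes 69.7 kb and a further 44.2 kb away on chromosome 5, gave 0.49 ± 0.39 and 0.00 ± 0.09 in A2780CBN. TGFB1I1, or Hic-5, a focal adhesion protein, was called higher in A2780CBNDXL (1.52, 2.28, 1.63 and 2.19, mean 1.91 ± 0.38), and in A2780CBN it was 1.09 and 1.16 on the forward and -0.46 and -0.31 on the reverse arrays. BMP2K, a kinase named for its induction by BMP2, was lower in A2780CBN (-0.98, -1.43, -0.90 and -1.17, mean -1.12 ± 0.24), where its other probe gave -0.64 ± 0.42, and gave -0.19 ± 0.37 in A2780CBNDXL. BMP1, a metalloproteinase that cleaves procollagen, gave between 0.95 and 1.11 with its 4 probes in A2780CBNDXL, of which 1 was called, and between -0.21 and 0.26 in A2780CBN.

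In each line 17 members had more than 1 tested probe, and in 14 of them the probes had the same sign. The median spread between probes of a gene was 0.17 log2 units in A2780CBN and 0.32 in A2780CBNDXL. The widest was 1.13, for BMP8B in A2780CBN, where a very bright probe gave 0.06 ± 0.21 with signals of 76701 and 73036 and a dim one 1.19 ± 0.46 with signals of 44.4 and 19.9. Which of these reports BMP8B cannot be told apart here. Forward and reverse arrays gave opposite signs for 9 of 42 tested members in A2780CBN (TGFB1, TGFB1I1, BMP1, BMP8B, LTBP3, ACVR1B, ACVR2A, SMAD2 and SMAD4) and for 4 of 40 in A2780CBNDXL (ACVR1B, SMAD2, BMP2K and TGFBRAP1). The SD over arrays was 0.29 for the median member in A2780CBN and 0.23 in A2780CBNDXL, beside 0.24 and 0.21 over all genes.

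Further genes of the pathway were taken from 5 lists that hold 85 genes, all on the array. In A2780CBN 63 of them were tested, of which 4 were called higher and 9 lower (20.6%), and in A2780CBNDXL 61 were tested, of which 6 were higher and 12 lower (29.5%). Over all genes 12.6% were called in A2780CBN (8.00% higher, 4.55% lower) and 16.9% in A2780CBNDXL (7.70% higher, 9.20% lower). The median log2 ratios were -0.15 and -0.03. The extracellular antagonists, which bind ligands away from receptors, had 4 genes lower and 1 higher of 10 tested in A2780CBNDXL, with a median of -0.64. There the BMP antagonist CHRDL1 gave -3.91, -4.55, -4.05 and -4.71, with the resistant channel not above background, or at least 5.36-fold lower. SOSTDC1, a BMP and WNT antagonist, gave -2.69 ± 0.19. FST, or follistatin, which neutralizes activin, gave -2.74 ± 0.34, with the resistant channel above background on 1 array, and NBL1 gave -1.24 ± 0.45. FSTL3, a relative of follistatin, was higher at 1.15 ± 0.19. In A2780CBN 1 of 12 tested antagonists was called, DAND5 at -1.26 ± 0.21, and SOSTDC1 was 0.15 ± 0.09.

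Genes of the latent complex and of its activation were called in both lines. FBN1 and FBN2 encode fibrillins, the microfibril proteins to which LTBPs bind. FBN1 was 1.69 ± 0.24 in A2780CBN and 0.75 ± 0.31 in A2780CBNDXL, and FBN2 was lower in both, at -3.05 ± 0.16 and -1.34 ± 0.05. ITGAV, the alpha subunit of the integrins that release TGF-beta from its latent form, was 0.63 ± 0.11 in A2780CBN and -1.94, -2.61, -1.95 and -2.64 in A2780CBNDXL (-2.28 ± 0.40, or 4.87-fold lower). EMILIN1, a matrix glycoprotein that limits processing of pro-TGF-beta, was 2.26 ± 0.42 in A2780CBN and -0.06 ± 0.09 in A2780CBNDXL. MMP2, a metalloproteinase, was not above background in A2780CBN and was at least 6.60-fold higher in A2780CBNDXL, where its ratios were 3.67 to 4.26. ITGAV thus stood below control in A2780CBNDXL and not in A2780CBN, as LTBP1 did, while MMP2 was higher there and FBN2 was lower in both lines. The listed integrin beta subunits ITGB6 and ITGB8 were not above background in A2780CBNDXL or its control. In A2780CBN only ITGB8 was, on 1 array.

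Of the other ligands and coreceptors, 2 of 4 tested genes were called in A2780CBN, the ligand AMH at -1.01 ± 0.77 and the BMP coreceptor RGMB at -1.05 ± 0.10. The AMH ratios followed the labelling, at -0.28 and -0.41 on the forward and -1.60 and -1.76 on the reverse arrays. AMH and RGMB were not called in A2780CBNDXL, at 0.96 ± 0.11 and -0.98 ± 0.60. In A2780CBNDXL 1 of 4 was called, RGMA at -1.16 ± 0.28. These counts, and those of the regulators below, stand beside 12.6% of all genes called in A2780CBN and 16.9% in A2780CBNDXL. Among the intracellular regulators 1 of 21 tested genes was called in A2780CBN, the SMAD corepressor SKIL at -2.02, -1.68, -1.98 and -1.34 (-1.76 ± 0.31), which is itself a TGF-beta target. In A2780CBNDXL 1 of 19 was called, the ubiquitin ligase NEDD4L at -1.77 ± 0.44, which acts on activated SMAD2 and SMAD3. SKIL gave 0.47 ± 0.09 in A2780CBNDXL and NEDD4L gave 0.06 ± 0.27 in A2780CBN.

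Genes known as targets of the pathway did not move one way. In A2780CBN 2 of 18 tested targets were higher and 4 lower, with a median of -0.11. In A2780CBNDXL 4 of 19 were higher and 4 lower, with a median of 0.02. Over all genes 8.00% were higher and 4.55% lower in A2780CBN, and 7.70% and 9.20% in A2780CBNDXL. CTGF, a matricellular TGF-beta target, was lower in both lines, at -2.50, -3.07, -2.54 and -2.99 in A2780CBN (-2.77 ± 0.29) and at least 25.9-fold lower in A2780CBNDXL, where the resistant signal of 8.84 was not above background against 531 in control. COL1A2, a chain of type I collagen, was lower in both, at -5.67 ± 0.15 and -2.81 ± 0.07, while COL1A1, the other chain, was 0.99 ± 0.08 in A2780CBN and 2.04 ± 0.20 in A2780CBNDXL, where it was called higher. CDKN1A, the cell cycle inhibitor p21, was higher in both, at 1.34 ± 0.50 and 1.03 ± 0.13. FN1, or fibronectin, was at least 8.75-fold higher in A2780CBN and not above background in A2780CBNDXL. In A2780CBN the transcription factors HEY1 (-1.82 ± 0.44) and ZEB2 (at least 2.54-fold lower) were lower. In A2780CBNDXL the homeobox gene MSX1, a BMP target, was 3.29 ± 0.26 and smooth muscle actin ACTA2 was 2.07 ± 0.06, while SNAI1 (-2.45 ± 0.17) and CYR61 (-1.71 ± 0.18) were lower.

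The ID genes, inhibitors of differentiation and direct targets of BMP signalling, had bright signals. In A2780CBN ID1 was 0.14 ± 0.29, ID3 was -0.34 ± 0.35 and ID4 was 0.38 ± 0.04. In A2780CBNDXL ID2 was 0.96 ± 0.17, ID3 was 0.29 ± 0.24 and ID4 was 0.09 ± 0.04. ID1 in A2780CBNDXL was measured on 3 arrays, at 0.73, 0.91 and 0.82, and ID2 in A2780CBN on 3, at 0.47, -0.13 and 0.51. None of the 4 ID genes passed the limit in a line where it was tested.

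**Figure D5:**
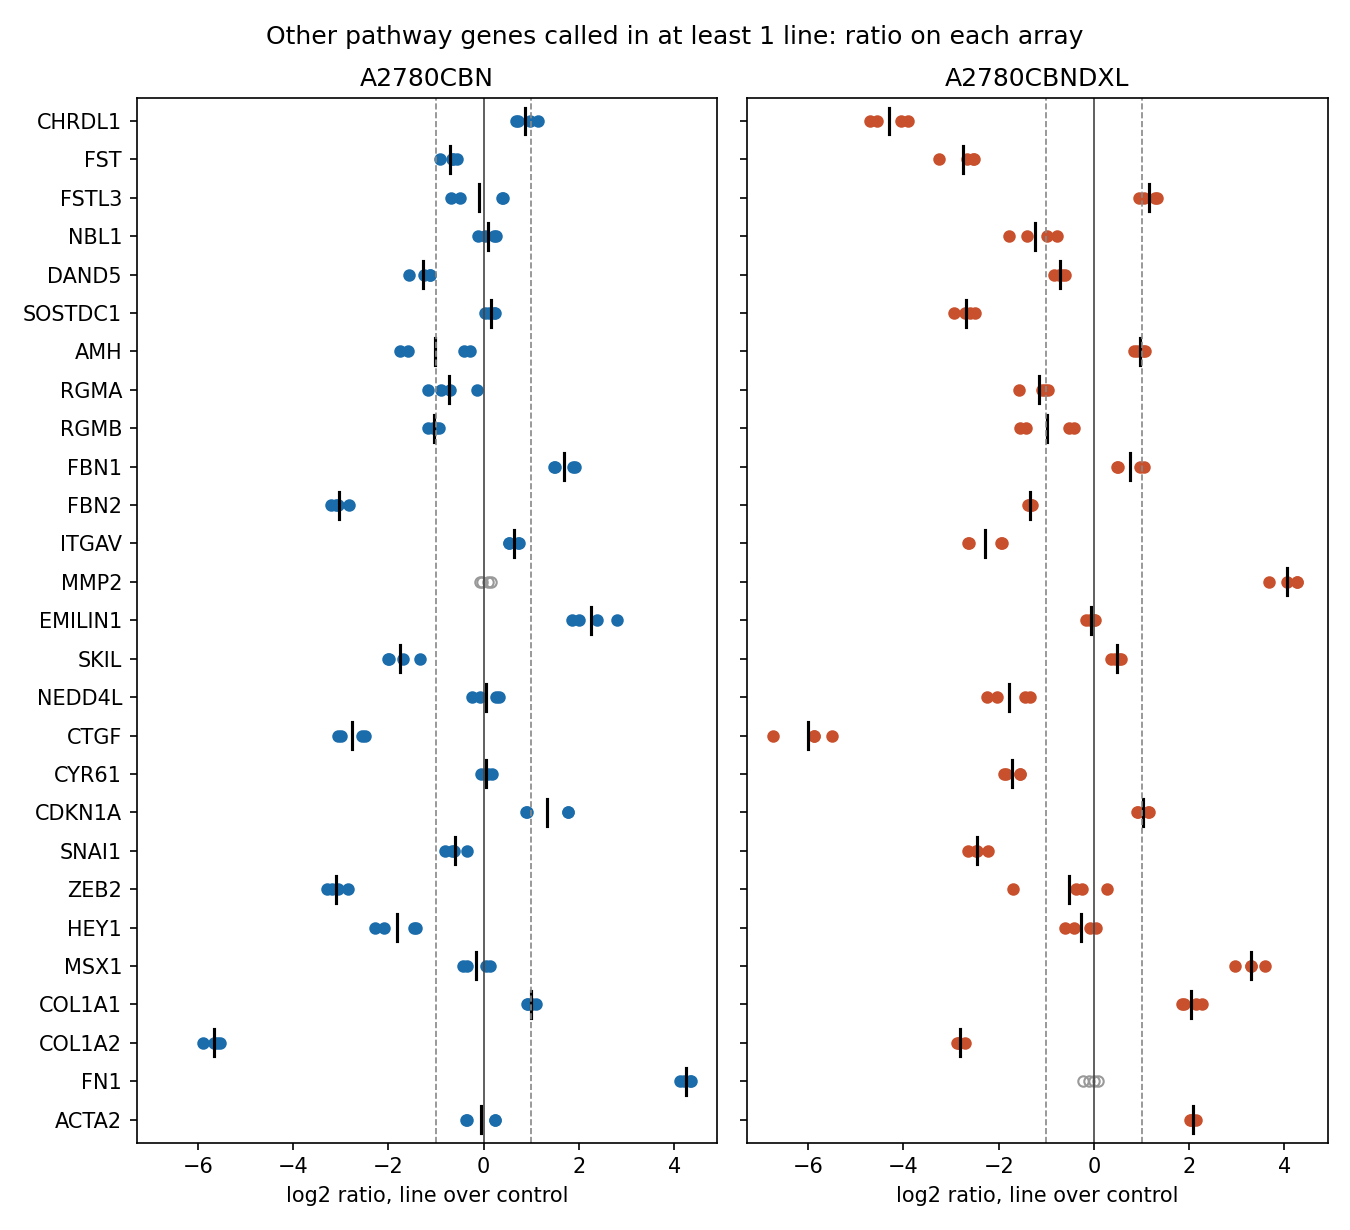
Log2 ratio of resistant line over control (horizontal axis) on each of 4 arrays for the list genes called in at least 1 line, in A2780CBN (left) and A2780CBNDXL (right). Filled points are tested genes with a bar at the mean, open grey points are genes not above background, and dashed lines mark a log2 ratio of 1 in either direction. FBN2, CTGF and COL1A2 lie left of 0 in both lines, and CHRDL1, FST, SOSTDC1 and ITGAV lie below -1 only in A2780CBNDXL.

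Markers of cell types were checked in all channels. Of 8 epithelial markers EPCAM, KRT8, KRT18 and PAX8 were above background in the resistant lines on all arrays, and CDH1, WT1 and MUC16 were not above background on any. EPCAM was called higher in both lines, at 2.07 and 1.67, and KRT18 in A2780CBN, at 1.05, and the summed epithelial signal was 3721 to 4592 in A2780CBN against 2185 to 2506 and 3561 to 3946 in A2780CBNDXL against 2357 to 2610. Of 7 mesenchymal or fibroblast markers 5 of 5 tested were higher in A2780CBN and 4 of 6 in A2780CBNDXL. Over all genes 8.00% were called higher in A2780CBN and 7.70% in A2780CBNDXL. LUM in A2780CBN and FAP in A2780CBNDXL had no control channel above background, so they passed the filter only through the resistant channel. PDGFRB was 2.36 in A2780CBN, while in A2780CBNDXL, where it was not tested, its mean was -2.53 with all 4 arrays below 0. Their summed signal over the 6 markers measured on every array, most of it VIM, ranged from 266060 to 340280 in A2780CBN against 103070 to 211370 in its control, and from 259500 to 284020 in A2780CBNDXL against 197100 to 204010. The part of these marker genes in the ratios above was not tested. PECAM1, CDH5 and KDR of the 4 endothelial markers and PTPRC of the 5 leukocyte markers were not above background on any array.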

How the data were processed

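Expression was measured on 8 two-colour Agilent arrays, 4 for each resistant line, each hybridized with pooled RNA of the line and of its control. The deposited values are spot intensities from Agilent Feature Extraction 10.7.1.1 (slide 1) and 10.7.3.1 (slide 2) which, per the file headers, were background-subtracted and dye-normalized. The submitters' processing notes also name Partek. Probe coordinates are on build NCBI36. A further line, A2780DXL, was not analysed here.

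Control spots and spots marked as outliers were dropped, spots of a probe were averaged, and log2 ratios of resistant line over control were taken from these signals with no further centring. Means weight the labelling directions equally. The brightest probe stood for a gene. On the reverse arrays the dye entries conflict with the array names, and these arrays were turned as the names and methods state, so the sign of every ratio rests on the forward labels. The 4 arrays of a line are technical repeats, and their number limits the precision. For comparisons across controls, channels were scaled between arrays (limma, Aquantile). Where 1 channel stayed at background, a fold is a bound against the lowest signal above background.

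Members were chosen by the start of their gene name. Named were those called in either line, a core of ligands, receptors, SMADs and LTBPs whatever their values, members whose probes disagree, and list genes called in either line with the ID genes. One further gene of that rule is not reported here. Members and lists were chosen with earlier results of these data known. Alternatives were normexp with loess, plain subtraction, each slide alone, each array left out, other filters, fold limits and control, limma with a dye effect or with the slide as a fixed block, and an analysis of variance over channels. Steps across many genes were tested on simulated data. Normalization and models ran in limma 3.58.1 under R 4.3.3. Counts, bounds and sequences were computed in Python 3.11.15 with pandas 2.3.3 and numpy 2.4.6, and figures were drawn with matplotlib 3.10.9.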

Additional observations from a re-analysis of the deposited data

Results flagged for a closer look

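For 12 members every array of A2780CBN lay on one side of 0 and every array of A2780CBNDXL on the other, and the difference was not tested across cultures. The share of all genes with such a split was not counted, so nothing particular to this family can be read from the number. Mean log2 ratios in A2780CBN and A2780CBNDXL were 3.09 and -1.84 for TGFB2, 1.12 and -2.36 for TGFBR2, and 1.23 and -3.94 for LTBP1, which were called in both lines. INHBE gave 0.30 and -3.78, TGFBR3 gave 0.16 and -1.20, TGFB3 gave 1.08 and -0.54, and SMAD6 gave -0.60 and 1.31. These were called in 1 line each. SMAD7 gave -0.96 and 0.73, GDF11 gave -0.35 and 0.92, ACVR1 gave -0.30 and 0.63, SMAD3 gave -0.081 and 0.73, and BMPR2 gave -0.31 and 0.19, without a call in either line. Against the other line's control the sign of the mean changed for TGFBR3 (-0.29), SMAD6 (0.61), SMAD3 (0.33) and BMPR2 (0.39) in A2780CBN. In A2780CBNDXL it changed for TGFB2 (0.28) and BMPR2 (-0.51). The mean kept its sign, but with arrays on both sides of 0, for INHBE (0.21) and SMAD7 (-0.41) in A2780CBN. The same held for SMAD6 (0.10), SMAD7 (0.17) and ACVR1 (0.63) in A2780CBNDXL.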

How the results depend on the processing

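Each ratio pairs the resistant and control channels of 1 array. No analysis paired across cultures was possible because each line is 1 pooled RNA sample and its arrays are technical repeats. In the values reported, 11 members were called in A2780CBN (9 higher, 2 lower) and 12 in A2780CBNDXL (7 higher, 5 lower). With normexp and loess, 4 were called in A2780CBN (4 higher, 0 lower) and 6 in A2780CBNDXL (4 higher, 2 lower), and calls over all genes fell to 3.36% and 6.85%. Calls lost there included TGFBR2, LTBP1 and TGFBI in each line. Against the other line's control 6 were called in A2780CBN (5 higher, 1 lower), with ACVR2B and SMAD9 gained. In A2780CBNDXL 12 were called, of which 3 were lower, with BMP7, GDF11, LTBP4 and TGFBR1 gained. TGFB2 lost its call there and changed sign to 0.28. A 3-fold limit gave 6 in A2780CBN (5 higher, 1 lower) and 8 in A2780CBNDXL, of which 4 were higher. A 1.5-fold limit gave 16 in A2780CBN (5 lower) and 23 in A2780CBNDXL (17 higher). The lower count in A2780CBN was 1 with plain subtraction, with the mean over probes and with both channels above background, and 4 on slide 1 alone. In A2780CBNDXL it was 3 with both channels above background and 3 by the analysis of variance at an adjusted p of 0.01, and that analysis lost TGFB2 there at 0.05. Leaving out each array in turn gave 11 to 12 called in A2780CBN (9 to 9 higher, 2 to 3 lower) and 12 to 13 in A2780CBNDXL (7 to 8 higher, 5 to 6 lower). Fits by limma, with or without the slide block, called 11 and 12. The slide could only be fitted as a fixed term. Of 677 values of named members under alternatives, 591 moved by less than 1 SD over arrays. Leaving out an array or using a slide alone cannot shift a mean by 1 SD over the same arrays. Values from those settings are therefore among the 591 by construction, and the count does not measure stability. The cause of these shifts was not tested. Signals near background limit BMP4, GDF10, TGFBI, LTBP1 and BMPR1B to bounds or to ratios that rest on a dim channel.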
